A study of Mus musculus with 12 samples.

Results

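Wnt signalling genes were followed in mammary epithelial cells from young female mice with and without a p190B transgene. The set held 10 genes picked by symbol: the ligands Wnt5a, Wnt5b, Wnt6 and Wnt7b, the co-receptors Lrp5 and Lrp6, the receptors Fzd1 and Fzd7, and the modulators Axin2 and Sfrp1. All 10 were on the array, read by 24 of its 45101 probe sets, a probe set being a group of short oligonucleotides read together as 1 value. The symbols came from the platform's annotation, and no measured value entered the choice.

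RNA came from cells of FVB/N mice, an inbred strain. Control animals carried the MMTV-rtTA transgene alone, in which a mammary tumour virus promoter makes a doxycycline-responsive activator. p190B animals carried MMTV-rtTA and TetO-p190B, where that activator switches on p190B, which is encoded by Arhgap5, together with luciferase. Mice of both genotypes, including the controls, were fed doxycycline in chow at 2 g/kg for 7 days from 5 weeks of age, and cells were isolated at 6 weeks. Each genotype had 6 arrays, called biological replicates in the labels. The labels do not say whether an array stands for 1 animal or a pool. Expression of the transgene is limited to cells in which the MMTV promoter is active, and the share of such cells is not stated.

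Wnt ligands are secreted, lipid-modified glycoproteins. When a Wnt binds a Frizzled receptor together with LRP5 or LRP6, the complex that marks β-catenin for destruction is disabled, and β-catenin enters the nucleus and works with TCF/LEF factors on target genes. Axin2 is a scaffold of the destruction complex and is itself a target of the pathway, while SFRP1 binds Wnts outside the cell. WNT5A and WNT5B signal largely without β-catenin. In the mammary gland, Wnt signals support the basal stem and progenitor cells and shape duct growth.

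The values are linear intensities in MAS5 units, and differences are given as p190B minus control on the log2(intensity + 16) scale, which understates changes of dim genes. Each array had been scaled to the same 2% trimmed mean, and array medians ran from 187.6 to 211.5. Arhgap5 itself did not pass in any of its 4 probe sets, whose differences ran from −0.32 to 0.41 with limma adjusted p from 0.258 to 0.925, so this gene gives no check of the genotype labels. Luminal markers (11 of 12 named on the array) and basal markers (9 of 9) were all above the level filter described next. So were all 7 fibroblast, all 6 macrophage, all 6 endothelial and all 6 skeletal muscle markers that were named, and 3 of 4 adipocyte markers. The summed lymphocyte signal (7 of 8 markers) varied widely in both genotypes, with 822.2 as lowest and 11696.8 as highest control value and 489.7 and 11572.8 in p190B. None of the named markers was at 0, but neither was any other probe set, the lowest value of all being 0.1. In such preparations fewer cells of a type and less RNA per cell cannot be told apart.

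No Wnt gene passed the test of a difference between p190B and control cells. Of the 24 probe sets, 22 passed the level filter, which kept 27022 probe sets at or above the 40th percentile of mean level, about 101.0 units. By limma with Benjamini-Hochberg adjustment over these, 0 of 22 passed an adjusted p of 0.05, against 10 of 27022 (0.037%) over all probe sets. At an unadjusted p under 0.05 there were also 0 of 22, where all probe sets gave 9.32%. The adjusted p ran from 0.635 to 0.989.

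The differences were small in both directions. Of the 22 probe sets 9 were higher and 13 lower in p190B, and over all probe sets 54.9% were higher. Their median difference was −0.035, beside 0.017 over all. For 0 of 22 did the arrays of the genotypes separate, against 0.877% of all probe sets. Every 95% interval lay on both sides of 0. For 20 of 22 the interval stayed within a 1.5-fold change either way. The median standard error was 0.148 for these probe sets and 0.124 over all.

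**Figure D1:**
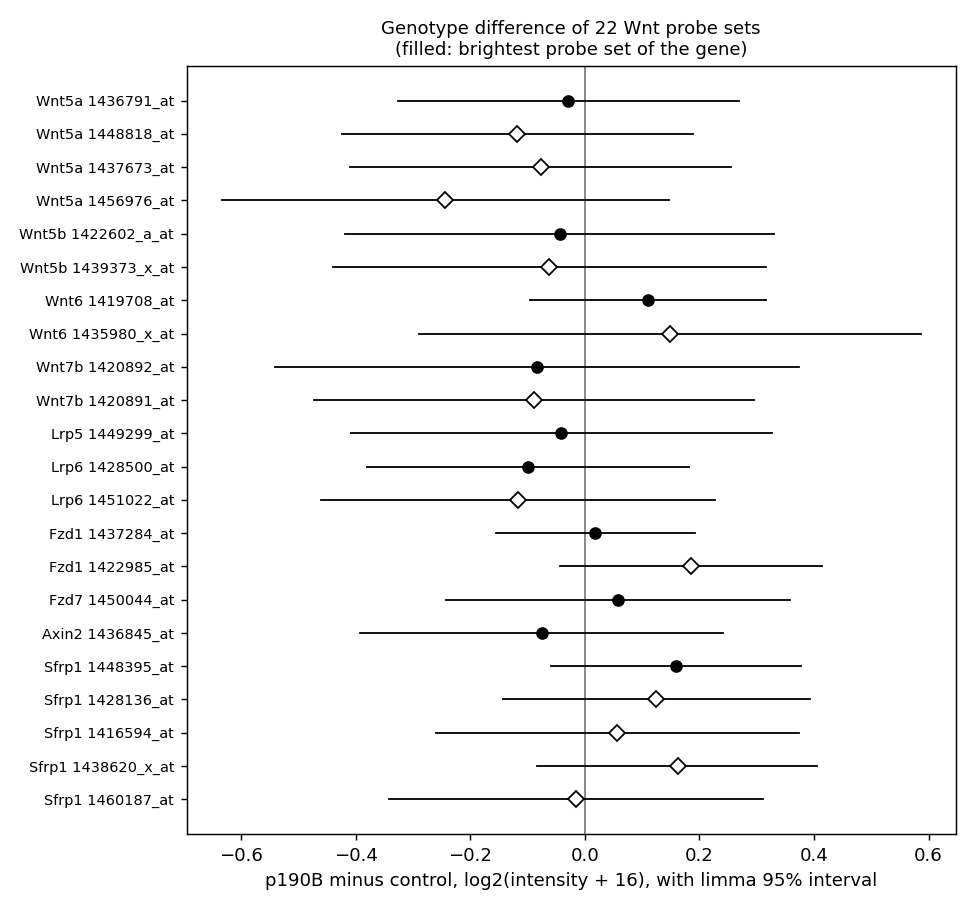
Difference between p190B and control (x axis, log2(intensity + 16)) for the 22 Wnt probe sets that passed the level filter, with the limma 95% interval as a line (6 arrays per genotype); filled circles are the brightest probe set of a gene and open diamonds its other probe sets. All 22 intervals cross 0, and the point estimates lie between −0.24 and 0.19.

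Among the ligands, Wnt5a, which restrains duct branching in the mammary gland, had nearly the same mean in both genotypes by its brightest probe set. On the control arrays 1436791_at had a lowest value of 2315.5, a median of 2696.2 and a highest value of 3441.9 units. On the p190B arrays these were 2066.4, 2936.5 and 3549.2. The difference was −0.03 (SE 0.14, 95% interval −0.33 to 0.27). p190B replicates 2 and 5 lay below every control and p190B replicate 6 above, so the p190B arrays spanned the whole control range.

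The remaining Wnt5a differences were −0.12 (SE 0.14) by 1448818_at, −0.08 (SE 0.16) by 1437673_at and −0.24 (SE 0.18) by 1456976_at. The 3 brighter probe sets followed each other over the 12 arrays, with Pearson r from 0.775 to 0.903. The dimmest, 1456976_at, followed them less closely (r from 0.475 to 0.543), and its control mean of 137 ± 35.9 and p190B mean of 111 ± 18.8 (SD, n = 6 each) were near the level filter. Without control replicate 2, its lowest control at 77.2 units, this difference was −0.38, with a limma adjusted p of 0.457. Leaving out the lowest control can only make it more negative. With any other single array left out it ran from −0.303 to −0.176.

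Wnt5b, the close relative of Wnt5a, was read by a pair of probe sets, and neither passed. Probe set 1422602_a_at had a lowest value of 524.8, a median of 663.7 and a highest value of 888.2 on control arrays, and 457.6, 641.3 and 1043.0 on p190B arrays. p190B replicate 1 was the highest of all 12 arrays and p190B replicate 2 the lowest, 2.28-fold apart. The genotype difference was −0.04 (SE 0.18, interval −0.42 to 0.33), and the second probe set, 1439373_x_at, gave −0.06 (SE 0.18). By the second probe set the lowest array was again p190B replicate 2, at 473.0, but the highest was control replicate 6, at 874.3.

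By brightest probe sets, Wnt6 was the ligand with the least spread over arrays (SD of log2 values 0.145), though its dimmer probe set had 0.366. The brighter, 1419708_at, ran from 395.0 through a median of 432.0 to 491.8 on control arrays and from 395.7 through 482.9 to 538.7 on p190B arrays. p190B replicates 3, 4 and 6 lay above every control, but p190B replicates 1 and 2, at 422.0 and 395.7, were under the control median. The difference was 0.11 (SE 0.10, interval −0.10 to 0.32, limma adjusted p = 0.775). The dimmer 1435980_x_at gave 0.15 (SE 0.21), and its upper bound of 0.59 was the highest of the 22.

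Wnt7b, a ligand that can signal through β-catenin, was among the most variable. Its probe set 1420892_at had a lowest value of 345.2, a median of 688.5 and a highest value of 819.3 on control arrays, and 414.4, 553.0 and 883.7 on p190B arrays. The SD of its log2 values over 12 arrays was 0.405, above 89.4% of all kept probe sets. The genotype difference was −0.08 (SE 0.21, interval −0.54 to 0.37), and 1420891_at gave −0.09 (SE 0.18).

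**Figure D2:**
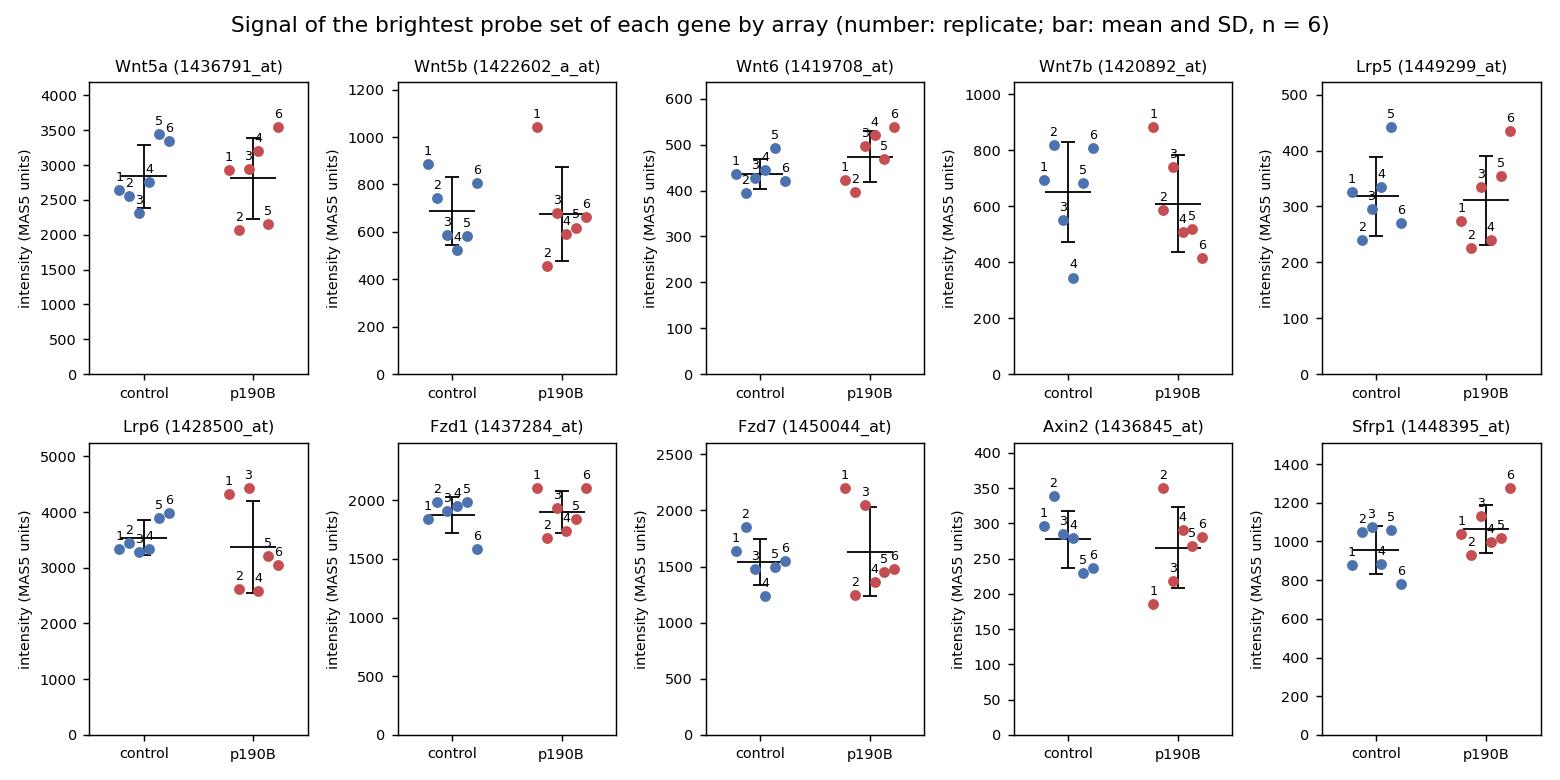
Intensity (MAS5 units, axes from 0) of the brightest probe set of each of the 10 genes on the 6 control and 6 p190B arrays; points are arrays numbered by replicate, with the mean and SD in black. The genotypes overlap for every gene, and for Lrp6 p190B replicates 1 and 3 lie above and the other 4 p190B arrays below all control arrays.

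For the brighter probe set of the co-receptor Lrp6, every p190B array lay outside the range of the control arrays, 2 above it and 4 below it. How often other probe sets have such a pattern was not counted. Probe set 1428500_at lay between 3273.8 and 3978.7 on the 6 control arrays, with a median of 3389.5. On p190B replicates 1 and 3 it reached 4327.8 and 4438.6, above every control. On p190B replicates 2, 4, 5 and 6 it was 2623.9, 2581.9, 3207.0 and 3054.3, below every control. Thus 0 of 6 p190B arrays fell inside the control range, and the SD was 820 in p190B against 310 in control (n = 6 each).

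With high and low arrays in the same group, the mean Lrp6 difference was −0.10 (SE 0.13, interval −0.38 to 0.18, limma adjusted p = 0.874). The dimmer probe set 1451022_at ranked p190B replicates 1 and 3 highest of its group too, at 474.1 and 464.2, but both lay under the highest control, 485.9. Only p190B replicates 4 and 5, at 255.0 and 282.9, lay outside the control range there, below the lowest control, 316.6. The difference by 1451022_at was −0.12 (SE 0.16), and over the 12 arrays both probe sets had r = 0.682. p190B replicates 1 and 3 also had the highest 3′ over 5′ ratios of Actb, a measure of RNA integrity, at 0.48 and 0.59 (log2), where the other 10 arrays ran from 0.25 to 0.35. For Gapdh the ratio of p190B replicates 1 and 3 was −0.32 and −0.37, and that of controls −0.52 to −0.47. For Gapdh, however, p190B replicates 2, 4 and 6, low for Lrp6, also lay above every control, at −0.39, −0.41 and −0.44. p190B replicates 1 and 3 were also the p190B arrays lowest in lymphocyte markers. These 2 arrays held the highest Lrp6 values of the p190B group, so leaving them out could only lower its mean. Without them the Lrp6 difference was −0.31 for 1428500_at and −0.31 for 1451022_at (limma adjusted p = 0.243 and 0.421). With the Actb ratio as a covariate these were −0.37 and −0.36 (adjusted p = 0.287 and 0.410), and with the Gapdh ratio −0.33 and −0.52 (adjusted p = 0.749 and 0.733). What part RNA integrity had in the Lrp6 values was not tested.

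Lrp5, the other co-receptor, which is needed for mammary stem cell activity, was read by 1 probe set. 1449299_at had a lowest value of 239.4, a median of 310.7 and a highest value of 442.4 on control arrays, and 226.1, 304.6 and 435.3 on p190B arrays. Both genotypes covered nearly the same range, with a difference of −0.04 (SE 0.17, interval −0.41 to 0.33). The highest arrays were control replicate 5 and p190B replicate 6.

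Of the Frizzled receptors, Fzd1 had the smallest spread of the 10 genes. The SD of its brightest probe set, 1437284_at, was 0.125 on the log2 scale, above only 14.9% of all kept probe sets. It ran from 1581.3 through a median of 1930.8 to 1988.1 on control arrays and from 1678.2 through 1887.6 to 2108.2 on p190B arrays, a difference of 0.02 (SE 0.08, interval −0.16 to 0.19). The dimmer probe set 1422985_at gave the largest positive difference of the 22, 0.19 (SE 0.11, interval −0.04 to 0.41). All 6 p190B arrays lay above the control median there and 3 of 6 above every control, from 204.6 to 281.5 units against 184.3 to 219.6. This probe set had the smallest p of the 22 (0.106 unadjusted, 0.635 adjusted, limma), and it followed 1437284_at with only r = 0.356 over the 12 arrays.

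Fzd7, a receptor linked to basal cells and stem cell activity in the mammary gland, ranged widely in the p190B group. Probe set 1450044_at had a lowest value of 1238.9, a median of 1521.7 and a highest value of 1856.1 on control arrays, and 1242.6, 1464.5 and 2203.4 on p190B arrays. p190B replicates 1 and 3, at 2203.4 and 2052.3, were again above every control. The genotype difference was 0.06 (SE 0.14, interval −0.24 to 0.36), and −0.15 without those 2 arrays (limma adjusted p = 0.598). Leaving out the 2 highest p190B arrays could only lower the p190B mean. The other Fzd7 probe set, 1450043_at, lay under the level filter and was not tested, at a mean of 65.9 ± 19.4 for control and 58.9 ± 34.1 for p190B arrays (SD, n = 6 each).

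Axin2, commonly used as a readout of β-catenin activity, differed between the genotype means by less than its standard error. Probe set 1436845_at ran from 230.2 through a median of 282.0 to 339.2 on control arrays and from 185.5 through 274.5 to 350.8 on p190B arrays, a difference of −0.08 (SE 0.15, interval −0.39 to 0.24). p190B replicates 1 and 3, high for Lrp6 and Fzd7, were the lowest of all 12 arrays for Axin2, at 185.5 and 218.8. The second probe set, 1421341_at, lay under the level filter (mean 34.3 ± 25.2 for control and 45.3 ± 17.9 for p190B arrays, SD, n = 6 each).

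Sfrp1, the secreted inhibitor, was read by 5 probe sets that all passed the level filter. The brightest, 1448395_at, had a lowest value of 778.9, a median of 966.6 and a highest value of 1076.3 on control arrays, and 930.7, 1028.1 and 1278.7 on p190B arrays. Its difference was 0.16 (SE 0.10, interval −0.06 to 0.38, limma adjusted p = 0.679), with 2 of 6 p190B arrays above every control. Differences by the remaining probe sets were 0.16 (1438620_x_at), 0.13 (1428136_at), 0.06 (1416594_at) and −0.02 (1460187_at), with SE from 0.11 to 0.15. Thus 4 of 5 Sfrp1 probe sets had a higher p190B mean, none past the test, and their agreement over arrays ranged from r = 0.258 to r = 0.839.

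Other genes of the pathway did not pass the test either. Of 85 further Wnt pathway genes, each read by its brightest probe set, 64 were tested, 0 passed by limma over all probe sets, and 7 had an unadjusted p under 0.05, a share to be read beside the 9.32% of all probe sets. The median difference was 0.009, with 35 genes higher and 29 lower. By role, 0 passed among 5 other ligands, 14 other receptors, 3 secretion and R-spondin genes, 11 other inhibitors, 18 intracellular components, 8 planar polarity genes and 10 target genes. Some genes stood in 2 of these groups.

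The pathway genes with the smallest unadjusted p in each direction did not pass either. On the lower side, Procr, a receptor for protein C and a marker of mammary stem cells, gave −0.20 (SE 0.06, limma adjusted p = 0.329). Wif1, which binds and blocks Wnts, gave −0.40 (SE 0.14, adjusted p = 0.406), with control arrays at 1479 ± 270.0 units and p190B arrays at 1122 ± 214 (SD, n = 6 each). Frzb, a secreted relative of SFRP1, gave −0.41 (SE 0.17, adjusted p = 0.469). On the higher side stood Ctnnb1, which encodes β-catenin, at 0.11 (SE 0.05, adjusted p = 0.488) and Btrc, a ubiquitin ligase subunit that recognises β-catenin, at 0.23 (SE 0.10, adjusted p = 0.496). Nkd2, an inhibitor of Dishevelled, followed at 0.23 (SE 0.13, adjusted p = 0.602).

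Over the arrays, Wnt5b varied together with Fzd7, and Lrp6 opposite to Axin2. Over the 22 probe sets the median SD of log2 values on the 12 arrays was 0.264, beside 0.219 over all kept probe sets. Of 45 pairs of the 10 genes, 2 passed a two-sided permutation test of Pearson r adjusted over the pairs, 11 had an unadjusted p under 0.05, and the median r was 0.195. How many pairs of other genes would do so was not counted, so these counts say nothing particular to Wnt genes.

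Wnt5b and Fzd7 were correlated with r = 0.798 (Spearman correlation 0.818, n = 12, permutation p = 0.00221 and 0.00184, adjusted 0.0497 and 0.0414). Within genotypes r was 0.723 in control and 0.866 in p190B, and without p190B replicates 1 and 2, the arrays farthest from the Wnt5b median, it was 0.587. Lrp6 and Axin2 had r = −0.806 (Spearman correlation −0.706, n = 12, permutation p = 0.00196 and 0.0131, adjusted 0.0497 and 0.102). Within genotypes that was −0.774 in control and −0.920 in p190B, and −0.660 without p190B replicates 1 and 3. Their calls were lost without p190B replicates 1 and 3 together (adjusted p = 0.203 and 0.331) and, for both pairs, without p190B replicate 1, 2 or 5 or control replicate 3 or 5. The call of Wnt5b with Fzd7 was lost, too, when control replicate 4 or p190B replicate 4 was left out, and that of Lrp6 with Axin2 when control replicate 1 or p190B replicate 3 was. Lrp6 with Fzd7 and Wnt7b with Fzd7 gave r = 0.758 and r = 0.756 (permutation p = 0.00430 and 0.00453, both adjusted to 0.0510). Their Spearman correlations were 0.762 and 0.874 (permutation p = 0.00543 and 0.00048, adjusted 0.0814 and 0.0216), so Wnt7b with Fzd7 passed by rank only. For Lrp6 with Fzd7 the control arrays alone gave r = 0.089 and the p190B arrays alone 0.969. For Wnt7b with Fzd7 these were 0.879 and 0.792. Fzd1 with Sfrp1 followed at r = 0.734 (Spearman correlation 0.685, permutation p = 0.00640 and 0.0181, adjusted 0.0576 and 0.102).

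**Figure D3:**
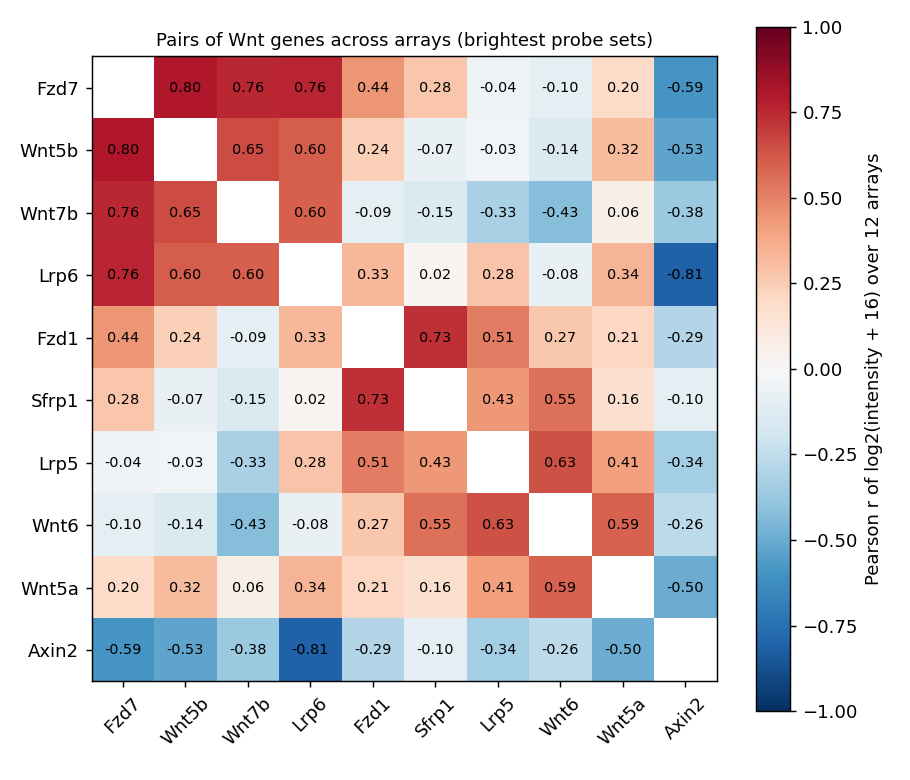
Pearson r of log2(intensity + 16) over the 12 arrays for each pair of the 10 Wnt genes, read by their brightest probe sets (red positive, blue negative, 1 value per pair). Fzd7, Wnt5b, Wnt7b and Lrp6 have r from 0.60 to 0.80 with each other, and Axin2 has negative values with all 9 other genes. Among those 4 genes only Wnt5b with Fzd7 passed the adjusted test of Pearson r, and Wnt7b with Fzd7 also passed by Spearman correlation.

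The upstream sequences of Fzd7 and Wnt5b are shown because these genes were correlated over the arrays, and that of Axin2 because it is a known target of the pathway. Axin2 passed against neither, with r = −0.590 for Fzd7 (adjusted permutation p = 0.179, 0.457 within control) and r = −0.531 for Wnt5b (adjusted permutation p = 0.262, 0.207 within control). They are the 250 bases before the transcript start in RefSeq's mouse assembly GRCm38.p6, 5′ to 3′ on the gene's strand. Capitals mark letters that TCF/LEF factors can bind, searched on both strands as CTTTGAT with its variants CTTTGAA or CTTTGTT or CTTTGTA at the last bases. The windows are chr1:59481897-59482146 (plus strand) for Fzd7, chr6:119449387-119449636 (minus strand) for the Wnt5b start that held a match, 1 of 3 listed, and chr11:108920099-108920348 (plus strand) for Axin2.

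Fzd7: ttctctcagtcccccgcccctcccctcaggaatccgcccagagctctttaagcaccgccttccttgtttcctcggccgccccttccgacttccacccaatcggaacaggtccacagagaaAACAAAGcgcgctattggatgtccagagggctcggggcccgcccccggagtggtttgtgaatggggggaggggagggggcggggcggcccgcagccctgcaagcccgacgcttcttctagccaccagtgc

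Wnt5b: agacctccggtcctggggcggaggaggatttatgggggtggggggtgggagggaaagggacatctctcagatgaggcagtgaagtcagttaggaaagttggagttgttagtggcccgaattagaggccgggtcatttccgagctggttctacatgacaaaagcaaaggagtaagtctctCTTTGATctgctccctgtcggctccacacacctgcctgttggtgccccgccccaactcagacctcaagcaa

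Axin2: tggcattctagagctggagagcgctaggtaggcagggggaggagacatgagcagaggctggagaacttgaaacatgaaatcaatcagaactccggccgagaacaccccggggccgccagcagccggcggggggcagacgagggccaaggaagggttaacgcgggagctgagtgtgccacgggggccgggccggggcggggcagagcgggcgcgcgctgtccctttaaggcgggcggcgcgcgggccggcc

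The match began at position −130 in Fzd7, on the opposite strand (AACAAAG), and at −71 in Wnt5b (CTTTGAT), counted back from the transcript start. The other Wnt5b starts, Axin2, Wnt6 and Fzd1 had no match in this window. Of 7 starts listed for 5 of the 10 genes, 2 held a match, and 14.8% of all 32851 windows did. The window of Axin2 held 24 CpG dinucleotides, that of Fzd7 17 and the Wnt5b window shown 7, where the median window held 6. A match describes letters only, and no binding was measured.

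Over the arrays, Fzd7 and Wnt5b tended to rise with basal cell markers, though not on every array. Control replicate 1 had the highest control value of Wnt5b, 888.2. Its basal marker mean was 12.378, where control arrays ran from 12.212 to 12.586. Each gene was set against the mean log2 level of basal and myoepithelial, luminal, fibroblast and lymphocyte markers, 40 relations in all, of which 4 passed a two-sided permutation test adjusted over the 40. Fzd7 rose with the basal markers (r = 0.821, Spearman correlation 0.811, n = 12, permutation p = 0.00110 and 0.00227, adjusted 0.0295 and 0.0454). This r was 0.868 within control and 0.842 within p190B, and 0.673 without control replicate 4 and p190B replicate 1, the arrays farthest from the median basal level. Only 0.408% of the other measured genes followed the basal markers as closely. Wnt5b gave r = 0.781 (Spearman correlation 0.776, permutation p = 0.00295 and 0.00462, adjusted 0.0295 and 0.0616), 0.539 within control, 0.950 within p190B, and 0.630 without the same 2 arrays. For Wnt5b 1.07% of genes did so.

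Lymphocyte markers ran the other way. Fzd7 had r = −0.807 with them (Spearman correlation −0.860, n = 12, permutation p = 0.00167 and 0.00058, adjusted 0.0295 and 0.0232) and Lrp6 r = −0.785 (Spearman correlation −0.713, permutation p = 0.00264 and 0.0116, adjusted 0.0295 and 0.0930). Within genotypes Fzd7 gave −0.541 in control and −0.931 in p190B, and Lrp6 −0.639 and −0.892. Without control replicate 5 and p190B replicate 1, farthest from the median lymphocyte level, r was −0.902 for Fzd7 and −0.713 for Lrp6. As strong an inverse relation was seen in 0.415% of genes for Fzd7 and 0.737% for Lrp6.

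The basal and lymphocyte means were themselves inversely related (r = −0.736, Spearman correlation −0.755, n = 12, permutation p = 0.00704), so these relations are not separate. With p190B replicates 1 and 3 left out together, only Fzd7 with the basal markers passed (r = 0.868, adjusted p = 0.0436). Without p190B replicate 1, without p190B replicate 4 or without control replicate 4, 0 of 40 relations passed. Without p190B replicate 3 only Fzd7 with the basal markers passed. Without p190B replicate 2 none of these 4 passed, and the 1 relation that did was Fzd1 with the fibroblast markers (r = 0.883). The call of Wnt5b with the basal markers was also lost without control replicate 6 (adjusted p = 0.0567) and with all arrays scaled to equal medians (0.0607). That of Lrp6 with the lymphocyte markers was lost without control replicate 1 or 3 (0.0501 each).

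**Figure D4:**
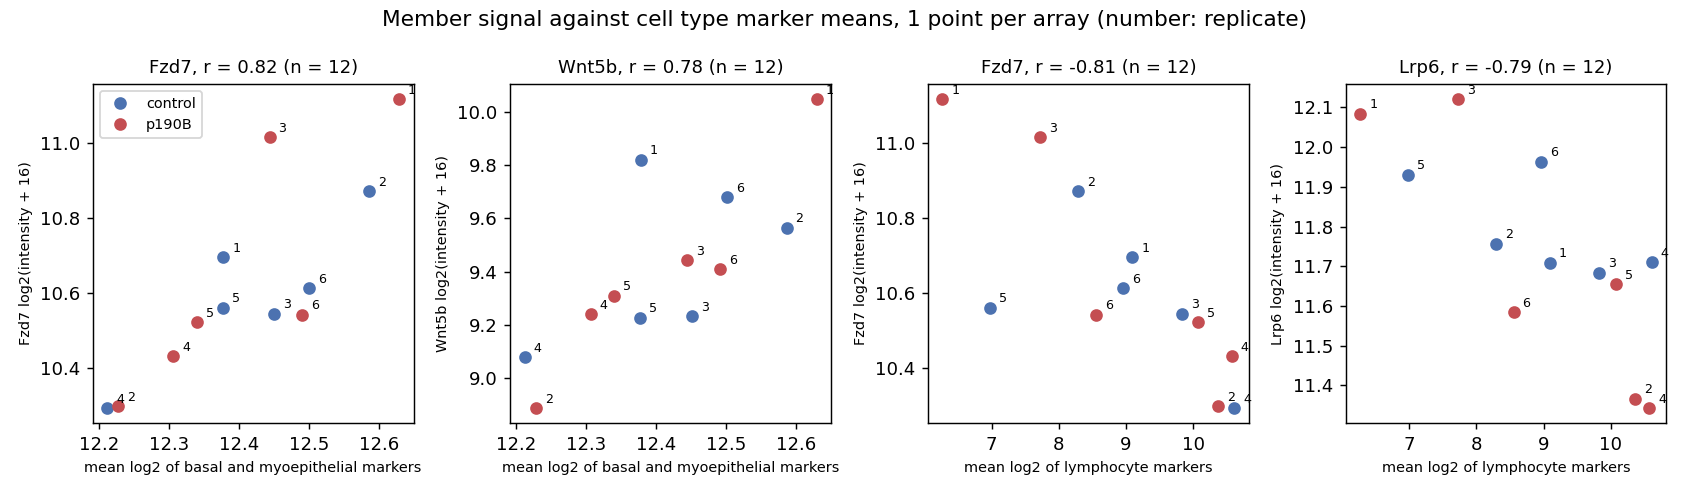
Log2(intensity + 16) of Fzd7, Wnt5b and Lrp6 (y axes) against the mean log2 level of basal or lymphocyte markers (x axes), 1 point per array, blue for control and red for p190B, numbered by replicate. Fzd7 and Wnt5b climb with the basal markers (r = 0.82 and 0.78), and Fzd7 and Lrp6 decline with the lymphocyte markers (r = −0.81 and −0.79).

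The other Wnt genes gave weaker relations, none past the adjusted test. Axin2 had r = 0.693 with the lymphocyte markers (Spearman correlation 0.552, n = 12, permutation p = 0.0123 and 0.0665, adjusted 0.0982 and 0.240), and 0.368 without control replicate 5 and p190B replicate 1. Wnt7b had r = 0.660 with the basal and −0.671 with the lymphocyte markers (Spearman correlation 0.699 and −0.720, permutation p = 0.0200 and 0.0169, adjusted 0.114 and 0.113). Fzd1 and Sfrp1 gave 0.584 and 0.563 with the fibroblast markers (Spearman correlation 0.427 and 0.364, permutation p = 0.0455 and 0.0591, adjusted 0.182 and 0.197). Without control replicates 1 and 6 these were 0.107 and −0.145. Wnt5a had r = 0.526 with the luminal markers (Spearman correlation 0.622, permutation p = 0.0807 and 0.0350, adjusted 0.248 and 0.200). Within genotypes this r was 0.722 in control and 0.790 in p190B. Wnt6 and Lrp5 stayed between −0.30 and 0.17 with all 4 marker means.

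For each gene, the 3 others with the most similar profile over the 12 arrays were sought among 12769 measured genes, as a description without a test. Fzd7 was most like Daam1 (r = 0.957), a formin of the planar polarity branch of Wnt signalling, followed by the protease gene Mmp11 (0.948) and Ino80 (0.946). Wnt7b was closest to Spast (0.953), Dennd2c (0.939) and the histone demethylase gene Kdm5b (0.936). Wnt5a was closest to Cdk19 (0.920), Prom1 (0.914), a luminal surface marker, and the ion transporter gene Slc12a2 (0.903). Wnt5b was nearest to Shroom3 (0.917), which acts in apical constriction, then Plcd3 (0.893) and Bcor (0.884).

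Wnt6 was most like Anxa6 (0.947), Mnat1 (0.895) and Acox2 (0.876). Lrp5 was nearest to Btbd3 (0.912), Kif16b (0.906) and the ERBB ligand gene Nrg2 (0.897), and Lrp6 to Selenoo (0.914), Auts2 (0.912) and Zcchc14 (0.908). Fzd1 was most like Srgap1 (0.919), Scara3 (0.919) and Ace (0.915). Axin2 was nearest to Smn1 (0.864), the stress gene Gadd45b (0.861) and B2m (0.853), the light chain of MHC class I. Sfrp1 was most like Lhx6 (0.849), Ap2a2 (0.842) and Cbfa2t3 (0.839). The 12 arrays were scaled alike, and each best match was taken from many genes. Some matches were much closer in 1 genotype. Lrp6 with Selenoo had r = 0.473 within control and 0.967 within p190B, and Axin2 with Smn1 0.535 and 0.974. For Sfrp1 with Cbfa2t3 these were 0.962 and 0.501. Others held in both, as Fzd7 with Daam1 (0.916 and 0.973).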

How the data were processed

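The labels describe total RNA of mammary epithelial cells, biotin-labelled and hybridised to 12 Affymetrix arrays. The deposited table gives 1 linear intensity per probe set and array, made with MAS5 according to the submitters' processing notes, with no version or setting named there. The values show that each array had been scaled to a 2% trimmed mean of 1000.0. Arrays have no depth, so their number limits the precision.

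Symbols were taken from the platform annotation and checked by Entrez ID against RefSeq GRCm38.p6, which changed 0 of them. Outside the array's own controls, 34945 probe sets had 1 symbol, 932 several and 9160 none. Log2(value + 16) of 27022 probe sets on all 12 arrays was fitted by genotype, with no covariate, in limma 3.58.1 under R 4.3.3 (two-sided eBayes with a trend, Benjamini-Hochberg threshold 0.05), and p-values measure the spread between these samples. Correlations used 100000 resamples in Python 3.11.15. The steps were tested on simulated data.

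The text names every member probe set, the 3 other pathway genes with the smallest p in each direction, the 3 closest profiles per member and all relations that passed. The relations named without passing and the pairs were chosen after their values were seen. The members and lists were chosen with earlier results of these data known. Alternatives were other pseudocounts, filters, scalings, fits, covariates and omitted arrays. The lymphocyte covariate and all alternatives for pairs were added after seeing the data.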

Additional observations from a re-analysis of the deposited data

Results flagged for a closer look

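Arrays far from the rest of their group were sought in 44 groups of 6 arrays, the 22 tested probe sets in each genotype, and 2 were found, where chance gives about 1 in 20. For Fzd1 probe set 1437284_at, control replicate 6 read 1581.3 units, and the other control arrays ran from 1837.4 to 1988.1. For Sfrp1 probe set 1460187_at, p190B replicate 6 read 615.2 units, and the other p190B arrays ran from 317.5 to 393.8.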

How the results depend on the processing

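In all 25 settings of the genotype fit 0 of the Wnt probe sets tested passed, 15 being tested with a filter at the 60th percentile and 22 or more otherwise. The sign of the difference was kept by 10 of 22, of which 5 were tested in every setting and 5 in all but that filter. The count over all probe sets, 10, was 5 with no level filter, 17 with a filter at the 60th percentile, 28 after quantile normalisation, 4 with equal medians, 3 without a trend in eBayes, 5 without p190B arrays 1 and 3 together, and 4 to 9 with 1 array left out. It was 0 with the Gapdh ratio as a covariate, 1 with the Actb ratio, 4 with fibroblast markers and 25 with lymphocyte markers. The Gapdh 3′ over 5′ ratio (log2) averaged −0.490 in control and −0.401 in p190B (SD 0.016 and 0.056, n = 6 each). That of Actb averaged 0.288 and 0.399 (SD 0.032 and 0.112). Both ratios thus differed with genotype, and a fit with either as a covariate cannot fully separate it from genotype. With the replicate number as a block, limma called 0 probe sets (2287 at an unadjusted p under 0.05), and the smallest adjusted p of a Wnt probe set was 0.725. Same-numbered arrays correlated between −0.287 and 0.408 and 2 of 12 arrays were closest to their own number. No pairing by number was seen, which does not exclude one.

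None of the differences that changed sign passed the test under any setting. Fzd1 1437284_at gave −0.014 with equal medians. With the Gapdh ratio, Wnt5a 1448818_at gave 0.021, Lrp5 0.177, Fzd1 1437284_at −0.066, Fzd7 −0.245, Axin2 0.140 and Sfrp1 1460187_at 0.172. With the Actb ratio, Fzd1 1437284_at gave −0.038, Fzd7 −0.240, Axin2 0.090 and Sfrp1 1460187_at 0.118. With fibroblast markers, Wnt5a 1436791_at gave 0.021, Wnt5b 0.039 (1422602_a_at) and 0.042 (1439373_x_at), Wnt7b 1420892_at 0.005, Fzd1 1437284_at −0.021 and Sfrp1 1416594_at −0.004. Without p190B arrays 1 and 3, Fzd1 1437284_at gave −0.028, Fzd7 −0.148, Axin2 0.098 and Sfrp1 1460187_at 0.086. Those arrays were the highest for Fzd7 and the lowest for Axin2. With 1 array left out, the ranges that crossed 0 were −0.102 to 0.054 (Wnt5a 1436791_at), −0.171 to 0.012 (Wnt5a 1437673_at), −0.176 to 0.056 (Wnt5b 1422602_a_at), −0.143 to 0.020 (Wnt5b 1439373_x_at), −0.249 to 0.015 (Wnt7b 1420892_at), −0.141 to 0.055 (Lrp5), −0.030 to 0.053 (Fzd1 1437284_at), −0.035 to 0.129 (Fzd7), −0.157 to 0.016 (Axin2), −0.139 to 0.045 (Sfrp1 1460187_at) and −0.046 to 0.133 (Sfrp1 1416594_at).

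The 4 relations with marker means were 1 without p190B arrays 1 and 3, and 0 to 6 with 1 array left out, where the counts without p190B replicate 2 or 6 or control replicate 2 or 5 include relations not among the 4. The 2 correlated pairs were 4 with a pseudocount of 64, 0 after quantile normalisation (adjusted p = 0.0523 for both, by permutation), 0 without p190B arrays 1 and 3, and 0 to 4 with 1 array left out. With equal medians the adjusted permutation p of Lrp6 with Axin2 was 0.0922. The cause of these changes was not tested.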
